A study of Danio rerio with 32 samples.

Results

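Apolipoproteins are the protein shells that make fat soluble in blood, and the liver is the main source of most of them. Apolipoprotein B is the backbone of the very low density lipoproteins that carry triglyceride out of the liver and stays with the particle until it is taken up. Apolipoprotein A-I is the main protein of high density lipoproteins, which return cholesterol to the liver, and apolipoprotein E is the ligand by which low density lipoprotein receptors recognise remnant particles. Zebrafish carry duplicate genes for several of them, so that apoa1a and apoa1b, and apoea and apoeb, are pairs.

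The list of interest held 8 zebrafish genes, apoa1a, apoa1b, apoa2, apoea, apoeb, apoc1, apoc2 and apobb. A probe was counted as a member when the RefSeq transcript given for it in the scanner files belonged to one of these genes. This gave 7 of the 43603 probes, for 5 of the 8 genes: 1 probe each for apoa1a, apoa1b, apoea and apobb (apobb.1 in the current nomenclature) and 3 for apoeb. The genes apoa2, apoc1 and apoc2 were not matched to a probe by transcript and were not analysed here. All 7 probes were well above background on all 12 arrays with scanner files, none was saturated and none was marked as an outlier spot. By RefSeq order on assembly GRCz12tu, used here for names and neighbours only, apoeb lies between apoa4b.2 and apoc1, and apoea lies next to apoa4a.

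Transcript abundance was measured with single-colour Agilent oligonucleotide arrays in livers of adult male zebrafish (Danio rerio), 6 to 9 months old by the labels. Each array was hybridised with RNA pooled from 4 or 5 fish. In the nutrient restriction experiment 4 arrays were of fed fish, which had received flake food 4 h before harvest, 4 of fish without food for 29 h by the methods (the label says 24 h) and 4 of fish without food for 50 h, and these 12 arrays lay on 3 slides. In the exposure experiment fish were kept for 24 h in flowing water with the organophosphorus pesticide dichlorvos (DDVP) at the low, mid or high concentration, with 4 arrays each. The labels give 6, 19 and 32 mg/L, which are targets by the paper, and its measured mid and high concentrations were lower. A further 8 arrays in 2 sets of 4 came from unexposed controls. The spread between arrays is therefore a spread between pools, and whole tissue cannot tell fewer cells of a type from less RNA per cell.

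Markers of other cell types differed between arrays. The summed signal of 11 hepatocyte marker probes had log2 sums of 20.72 to 20.92 over the 12 nutrient restriction arrays, which weights the brightest probes. Of these 11 probes 2, both of the plasma glycoprotein gene ahsg2, were lower after 50 h without food at an adjusted p of 0.05, at -0.66 (adjusted p = 0.0278) and -0.96 (adjusted p = 0.0147) in limma. Among all 16082 probes tested 6% passed that threshold in this comparison, in either direction. The summed signal of 7 probes for intestinal epithelium ranged from 10.53 to 14.84 in fed, 10.01 to 17.22 in unfed 29 h and 10.68 to 16.88 in unfed 50 h arrays. The sums of 14 exocrine pancreas probes were 18.85 to 19.99, 17.11 to 18.73 and 17.19 to 20.11 in the same groups. Erythrocyte sums (11 probes) were 12.98 to 15.08, 13.72 to 15.24 and 13.44 to 14.73. The sums of 3 vitellogenin probes, a female liver product, were 10.74 to 12.08, 9.78 to 10.89 and 9.30 to 11.47, and 1 of those probes was well above background on all 12 arrays. In the deposited table, which holds the exposure experiment, no probe of the pancreas, erythrocyte, intestine, macrophage or vitellogenin lists was present, so other cell types could not be followed there.

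In fed liver the apolipoprotein probes ranged from among the brightest on the array to moderate signals. Ranked by mean signal among the 43603 probes, the apobb.1 probe was number 56 (52 to 66 on single arrays), the apoeb probes were numbers 365, 412 and 566, and the apoa1a probe was number 886. The apoea probe ranked 5323 (935 to 9942 on single arrays) and the apoa1b probe 6850 (3859 to 10176.5). These are ranks of probe signal, which also depends on how well each probe binds, and not of molecules.

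**Figure D1:**
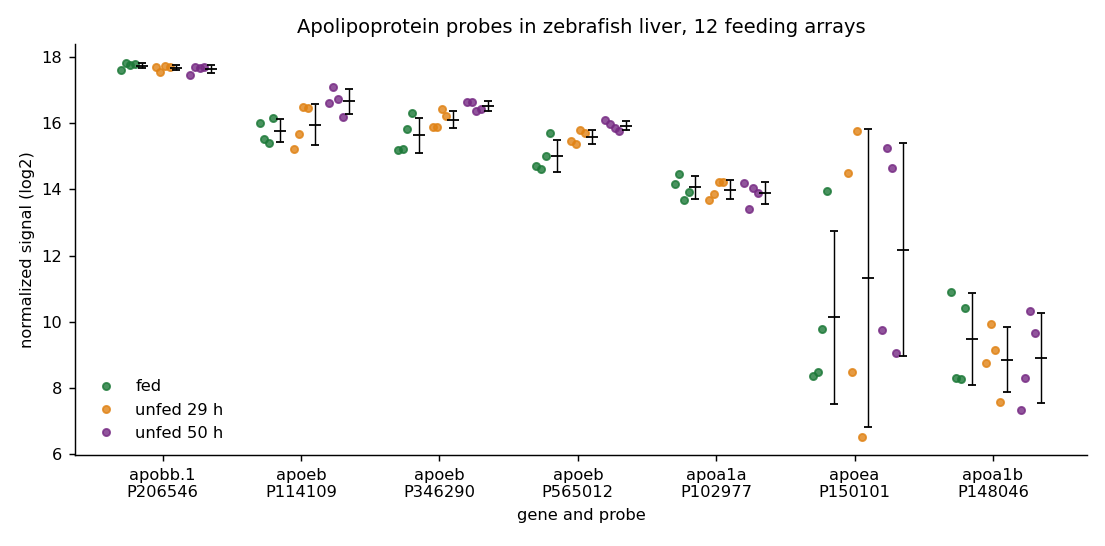
Normalized log2 signal (y axis) of the 7 apolipoprotein probes (x axis, ordered by mean) on the 12 nutrient restriction arrays; each point is 1 array, coloured by feeding group, and each black bar is the group mean ± SD (n = 4). The apobb.1 arrays lie between 17.48 and 17.82, whereas apoea runs from 6.52 to 15.77.

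The question of the nutrient restriction comparison was how far these transcripts followed the last meal. In none of the 3 feeding comparisons did a member probe reach the adjusted p of 0.001 set for calls (limma). That threshold was passed by 0.00622% of the 16082 probes tested after 29 h and by 0.0187% after 50 h without food, and by 0% between 29 h and 50 h. At an unadjusted p under 0.05 there was 1 member probe after 29 h (23.2% of all probes), 3 after 50 h (24.1%) and 1 between the 2 unfed groups (6.27%). At the looser adjusted p of 0.05, passed by 5.75%, 6% and 0.00622% of all probes, 2 of the 3 apoeb probes were higher after 50 h without food than in fed liver, and no other member was called. The median difference of the 7 member probes after 50 h was 0.88 on the log2 scale, against -0.06 over all probes. As 3 of the 7 are apoeb, this median is itself the value of an apoeb probe. Of the other genes, apobb.1 was at -0.11, apoa1a at -0.17, apoa1b at -0.57 and apoea at 2.04 (SE 2.18).

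The gene apoeb encodes an apolipoprotein E and is also known as a marker of zebrafish microglia. For probe P565012 the fed arrays read 14.71, 14.62, 15 and 15.71 on the log2 scale, the unfed 29 h arrays 15.46, 15.37, 15.81 and 15.70 and the unfed 50 h arrays 16.10, 15.97, 15.87 and 15.78. All 4 unfed 50 h arrays were above all fed arrays, by a small margin over fed array 4, while the unfed 29 h arrays overlapped with both. The difference after 50 h was 0.92 (SE 0.21), or 1.89-fold, with a limma adjusted p of 0.0272. After 29 h it was 0.57 (SE 0.21, adjusted p = 0.123 in limma), and between 29 h and 50 h it was 0.35 (SE 0.21, adjusted p = 0.801 in limma), neither of which passed the adjusted threshold, although the 95% interval of the 29 h difference, 0.12 to 1.03, lay above 0.

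For probe P346290 the fed arrays read 15.20, 15.22, 15.82 and 16.31, the unfed 29 h arrays 15.90, 15.90, 16.44 and 16.22 and the unfed 50 h arrays 16.65, 16.66, 16.38 and 16.44. Fed array 4 was again the highest of its group. The difference after 50 h was 0.90 (SE 0.23), or 1.86-fold, with a limma adjusted p of 0.0425, and after 29 h it was 0.48 (SE 0.23, adjusted p = 0.235 in limma).

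Probe P114109, the brightest of the 3, read 16.02, 15.54, 15.42 and 16.16 in fed, 15.22, 15.69, 16.49 and 16.46 in unfed 29 h and 16.62, 17.09, 16.75 and 16.20 in unfed 50 h arrays. Its difference after 50 h was of the same size, 0.88 (SE 0.30), with a limma adjusted p of 0.0977. After 29 h it was 0.18 (SE 0.30, adjusted p = 0.768 in limma). In all 3 probes the 4 unfed 50 h arrays lay above the 4 fed arrays, an ordering shown by 6.27% of all probes tested. The 3 probes target 1 transcript and are not independent measurements of the fish.

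**Figure D2:**
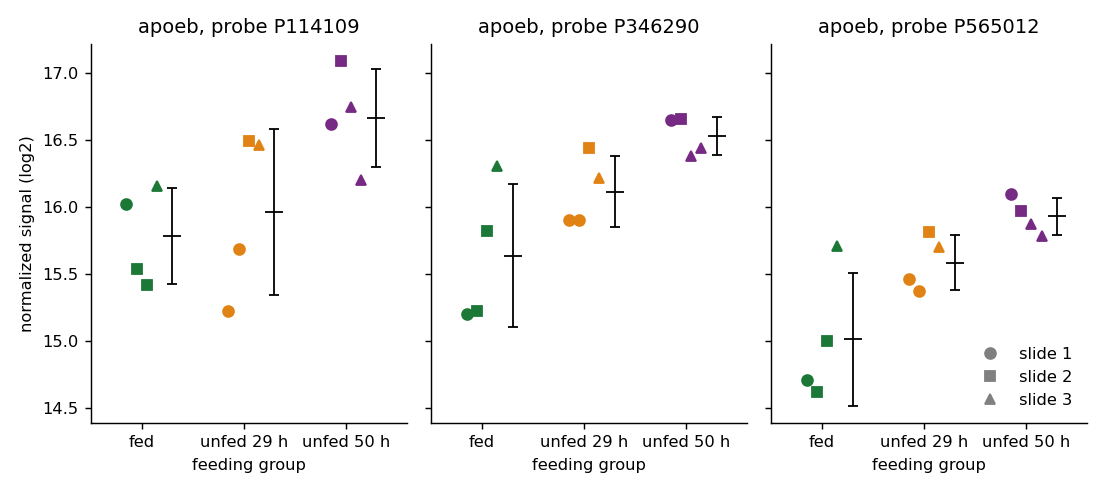
Normalized log2 signal (y axis) of the 3 apoeb probes in fed, unfed 29 h and unfed 50 h liver (x axis); each point is 1 array, its shape gives the slide, and bars are mean ± SD (n = 4). The 4 unfed 50 h arrays lie above the 4 fed arrays in each panel, and on slide 3 (triangles) the groups come closest.

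The size of the apoeb difference was not the same on every slide. Within slide 1 the 50 h difference was 1.39 for P565012, 1.45 for P346290 and 0.60 for P114109, and within slide 2 it was 1.16, 1.15 and 1.61. Within slide 3, which held fed array 4, it was 0.12, 0.10 and 0.32. Each of these is the difference of 1 or 2 arrays a group and has no test. With the slide as a block the adjusted p in limma was 0.055 for P565012 and 0.0665 for P346290, so that the call at 0.05 was lost, with differences of 0.87 and 0.88. Without fed array 4 the differences were 1.15 (adjusted p = 0.00295 in limma) and 1.12 (adjusted p = 0.00872 in limma). Without any 1 of the other 3 fed arrays, both calls at 0.05 were lost (adjusted p of 0.0699 to 0.113 in limma).

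Macrophages are another source of apolipoprotein E. The summed signal of 9 macrophage marker probes was 13.29 to 14.36 in fed, 13.79 to 15.16 in unfed 29 h and 14.22 to 15.32 in unfed 50 h arrays. It was highest among fed arrays in array 4, as were all 3 apoeb probes. The sum weights its brightest probe, 1 of cd74b, which read 13.56 on fed array 4. Among fed arrays the probes of cd74b, mfap4.1, mpeg1.1 and mpeg1.2 were highest on array 4. Those of spi1b and csf1ra were not, spi1b reading 8.77 on fed array 1 and 7.83 on fed array 4. Of the 9 probes 7 were well above background on all 12 arrays, while those for csf1ra, a receptor gene of the same list, were so on 2 and on 10. Of the 7 macrophage probes tested, that of mpeg1.1, which encodes a macrophage perforin, was higher after 50 h at an adjusted p of 0.05 (1.16, SE 0.26, adjusted p = 0.0243 in limma). That threshold was passed by 6% of all probes. The median difference of the 7 after 50 h was 1.06, against 0.88 to 0.92 for apoeb. After 29 h it was 0.93, against 0.18, 0.48 and 0.57 for P114109, P346290 and P565012. From 29 h to 50 h it was 0.14, against 0.70, 0.42 and 0.35 for the same probes. Unfed 29 h array 1, second highest in macrophage signal at 15.16, read 15.22 in P114109, the lowest of the 12 arrays, but 15.90 in P346290 and 15.46 in P565012, each above 3 of the 4 fed arrays. The part of macrophage RNA in the apoeb difference was not tested. With the 5 arrays highest in intestinal marker signal left out, the apoeb differences after 50 h were 1.17 (adjusted p = 0.0327), 1.14 (adjusted p = 0.0549) and 0.75 (adjusted p = 0.22) in limma for P565012, P346290 and P114109. These 5 arrays included fed array 4 and unfed 50 h arrays 2 and 3. Leaving out fed array 4 alone already gave 1.15 and 1.12 for P565012 and P346290.

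The apobb.1 transcript, for apolipoprotein B, showed no difference beyond its spread without food. The fed arrays read 17.63, 17.82, 17.76 and 17.80, the unfed 29 h arrays 17.71, 17.57, 17.74 and 17.72 and the unfed 50 h arrays 17.48, 17.71, 17.68 and 17.71. All groups overlapped. The difference from fed liver was -0.07 after 29 h and -0.11 after 50 h (SE 0.09), with a 95% interval of -0.31 to 0.10 after 50 h. Its SD within groups, 0.09, ranked 15778 among 16082 probes in order of falling spread (median 0.24), so that few probes varied less between pools. The probe was also number 56 by signal in fed liver, and whether spread narrows at such signals was not tested.

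The apoa1a transcript, for apolipoprotein A-I, showed none either. It read 14.18, 14.47, 13.69 and 13.91 in fed, 13.67, 13.86, 14.23 and 14.22 in unfed 29 h and 14.20, 13.42, 14.05 and 13.89 in unfed 50 h arrays, with full overlap. The differences were -0.06 and -0.17 (SE 0.21), and the 95% interval after 50 h was -0.63 to 0.29.

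Its duplicate apoa1b varied far more between pools. Fed arrays read 10.91, 8.28, 8.26 and 10.41, unfed 29 h arrays 8.75, 9.94, 9.13 and 7.57 and unfed 50 h arrays 7.31, 8.29, 10.32 and 9.66, so that the groups overlapped fully. The within-group SD of 1.26 ranked 140 of 16082, and the differences from fed liver, -0.62 after 29 h and -0.57 after 50 h, were smaller than their SE of 0.78. The named probes most like apoa1b over the 12 arrays by Pearson correlation were those of gip (0.957), a gut and pancreatic hormone, amy2a (0.898), the pancreatic amylase, and bbs5 (0.869). The order of pancreas signal was only partly that of apoa1b. Pancreas sums were highest on unfed 50 h array 3 (20.11) and fed array 1 (19.99), where apoa1b was high. Fed arrays 2 and 3 ranked 4 and 5 of 12 in pancreas sum (18.91 and 18.85), but read low in apoa1b. The pancreas probe of cel.2 read 12.1 on fed array 1, its lowest fed value. With the 4 arrays highest in exocrine pancreas marker signal left out, 3 of them fed, the differences were 0.59 and 0.16, which rest on fed array 3 alone. The part of pancreatic RNA in the apoa1b values was not tested.

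The apoea transcript, for the second apolipoprotein E, split the 12 arrays rather than the 3 groups. Fed arrays read 8.34, 8.48, 9.78 and 13.94, unfed 29 h arrays 14.50, 8.49, 15.77 and 6.52 and unfed 50 h arrays 9.74, 15.26, 14.65 and 9.06. The span of 609-fold lay within the unfed 29 h group alone. A set of 5 arrays, namely fed 4, unfed 29 h 1 and 3 and unfed 50 h 2 and 3, stood above the rest with a gap of 4.16 to the next. The within-group SD of 3.54 ranked 2 of 16082, and the differences from fed liver were 1.19 and 2.04 with an SE of 2.18 (adjusted p = 0.795 and 0.604 in limma).

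The same 5 arrays were the highest for the intestinal markers fabp2, the intestinal fatty acid binding protein, vil1, the brush border protein villin, and the chitinases chia.1 and chia.2. The other 3 probes of the intestinal list, 2 of fabp6 and 1 of cdx1b, were well above background on 4 to 9 arrays. The dim cdx1b probe was highest on the same 5 arrays, at 5.72 to 6.35 against at most 5.44 on the others. For fabp6 the order was not the same, as its probe P116028 read 8.13 on fed array 1 and 5.96 on fed array 4. The 5 arrays were also the highest for cd36, a fatty acid transporter, for apoa4a, the apolipoprotein gene next to apoea, and for 2 of the 7 macrophage probes tested, 1 each of cd74b and mfap4.1. For fabp2 they read 13.22 to 15.48 against 8.45 to 9.67 on the other 7 arrays, and for apoa4a 10.81 to 12.64 against 8.31 to 10.65. Of 16024 other probes 199 had these 5 arrays at the top, and 13 of them with a gap of at least 2 on the log2 scale. The named probes closest to apoea over the 12 arrays by Pearson correlation were those of zgc:153968 (0.985), chia.2 (0.984) and fabp2 (0.983). With these 5 arrays left out, which are also the 5 highest for apoea itself, apoea differed by -1.36 after 29 h (adjusted p = 0.343 in limma) and by 0.53 after 50 h (adjusted p = 0.703 in limma). The part of intestinal or macrophage RNA in the apoea values was not tested.

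**Figure D3:**
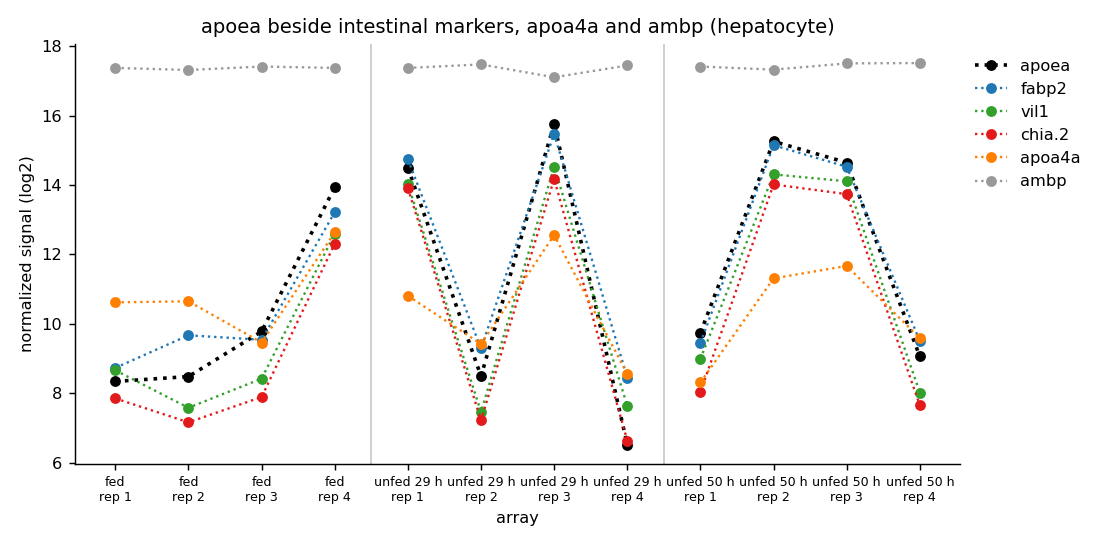
Normalized log2 signal (y axis) of apoea, of the intestinal markers fabp2, vil1 and chia.2, of apoa4a and of ambp, a hepatocyte transcript, on each of the 12 nutrient restriction arrays (x axis, grouped by feeding; each point is 1 array and dotted lines join arrays of a group only to guide the eye). The arrays fed 4, unfed 29 h 1 and 3 and unfed 50 h 2 and 3 are high in apoea and in fabp2, vil1 and chia.2, while ambp stays between 17.11 and 17.52. Not drawn are fabp6 of the intestinal list, whose order of arrays differed, and ahsg2 of the hepatocyte list, which was lower after 50 h without food.

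For the DDVP experiment 3 member probes, that of apobb.1 and P346290 and P565012 of apoeb, were among the 5481 probes of the deposited table. These probes were chosen by the authors for differing between groups on these same arrays, so a call is common among them. A probe was called when its adjusted p reached 0.001 and it differed from the 8 controls by 1.8-fold or more. In order of concentration, 30.7%, 62.6% and 74.6% of the probes were called, and 17.3%, 30.7% and 35.1% were called lower. Of the 3 member probes 0, 2 and 3 were called, all lower than in the controls (at the low concentration 2 had an unadjusted p under 0.05). Their median difference, with 2 of the 3 probes being apoeb, was -0.57, -1.42 and -1.26, against 0.05, 0.45 and 0.51 over the table. The means of both control sets are equal in every probe to within 1e-04. The paper describes batch removal for the dates of the 2 experiments and does not name the control sets as batches. Whether that step made the means equal was not tested. With equal means the controls spread less than separate sets would, so the adjusted p values are too small. The unfed 29 h means equal those of the first set to the same margin. Probes off-scale in the stronger of 2 scans took values from the weaker one. Control means of the 3 member probes (35000, 51200 and 34100 on the deposited scale) lay above the methods' off-scale limit, and all exposed means below it. That scale is normalized and batch-adjusted, so the scan behind each value is not known. The part of the change of scan in these differences was not tested.

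The apobb.1 transcript read lower at each higher concentration and was called at the high one. Control arrays read 15.13, 15.05, 14.99 and 15.20 in the first set and 15.05, 15.12, 15.07 and 15.14 in the second, and the low arrays 14.87, 14.92, 14.99 and 14.96. The mid arrays read 14.46, 14.62, 14.54 and 14.47 and the high arrays 14.30, 14.01, 13.54 and 13.82. The low arrays touched the controls, and from there on each group lay wholly below the one before.

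Against the controls apobb.1 differed by -0.16 at the low concentration (SE 0.11, adjusted p = 0.194 in limma). At the mid concentration it differed by -0.57 (adjusted p = 4.27e-05 in limma), 1.48-fold lower, which is short of the 1.8-fold filter. At the high concentration it was 2.26-fold lower (log2 difference -1.17, SE 0.11, adjusted p = 1.19e-09 in limma). The step from low to mid was -0.41 (adjusted p = 0.00682 in limma) and that from mid to high -0.61 (adjusted p = 0.00279 in limma), neither past 0.001, where 25.8% and 1.37% of the table's probes were called with the fold filter. All 4 arrays of the higher concentration lay below those of the lower in both steps, as in 24.2% and 8.36% of the table. The labels do not say which control set belongs to which concentration, so either step may also rest on the batch removal.

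The apoeb transcript was called lower at the mid and high concentrations, with its lowest mean at mid. For P346290 the control arrays read 15.30, 15.82, 15.71 and 15.74 in the first set and 15.83, 16.29, 15.25 and 15.20 in the second. The low arrays read 14.66, 14.90, 14.87 and 14.92, the mid arrays 15.06, 14.43, 13.83 and 13.23 and the high arrays 13.56, 14.09, 15.01 and 14.85. Every exposed array was below every control array, an ordering found in 25.2%, 36.9% and 39.9% of the table in order of concentration, and the mid and high arrays were spread over more than 1 log2 unit.

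P346290 differed from the controls by -0.81, -1.51 and -1.27 (SE 0.28), or 1.75-, 2.84- and 2.4-fold lower, with adjusted p of 0.0143, 3.57e-05 and 0.000216 in limma. Control readings of P565012 were 14.80, 15.29, 14.93 and 15.21 and 15.30, 15.57, 14.67 and 14.70. Its low arrays read 14.17, 14.98, 14.43 and 14.35, its mid arrays 14.41, 13.75, 13.31 and 13.07 and its high arrays 13.20, 13.32, 14.36 and 14.33. Here low array 2 lay among the controls, and the mid and high arrays were all below them.

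P565012 differed from the controls by -0.57, -1.42 and -1.25 (SE 0.25), or 1.49-, 2.68- and 2.39-fold lower, with adjusted p of 0.0463, 1.91e-05 and 7.04e-05 in limma. From mid to high the 2 probes differed by 0.24 and 0.17, with 95% intervals of -0.44 to 0.92 and -0.44 to 0.77, so no further step was detectable. In both probes high arrays 1 and 2 were lower than 3 and 4, which is the reverse of the order in apobb.1. Against control set 1 alone the high difference of P346290 of apoeb was no longer called (adjusted p = 0.00137 in limma), nor was either probe against set 2 alone (0.00268 and 0.00115). Without high array 1 or 2 P346290 also missed the threshold, at -0.99 (adjusted p = 0.00261 in limma) and -1.17 (adjusted p = 0.00155 in limma).

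**Figure D4:**
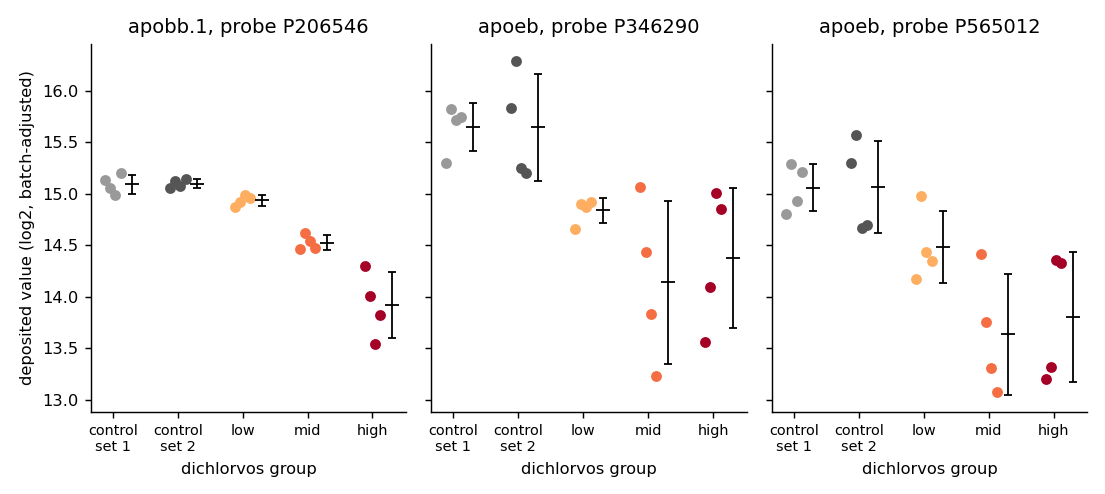
Deposited log2 values (y axis) of apobb.1 and of 2 apoeb probes in both control sets and at the low, mid and high DDVP concentrations (x axis); each point is 1 array and bars are mean ± SD (n = 4). For apobb.1 the mid arrays lie between 14.46 and 14.62 and the high arrays between 13.54 and 14.30, while the mid and high arrays of apoeb overlap.

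The likeness of other genes was taken as Pearson's correlation over the 20 DDVP arrays, which includes the differences between concentrations and shares the same arrays. The closest to apobb.1 were cyp2ad3 (0.972), a cytochrome P450, tmt1a.1 (0.971) and mthfd1b (0.969), an enzyme of folate metabolism. The closest to P346290 of apoeb were hbegfa (0.862), an epidermal growth factor family ligand, znf592 (0.852) and golim4b (0.847). Over the 12 feeding arrays the closest to apobb.1 were mif4gda (0.90), trmo (0.87) and pleca (0.863), to P114109 of apoeb snx6 (0.94), col1a1b (0.879) and selenow1 (0.878) and to apoa1a pam16 (0.892), zgc:77058 (0.882) and zfand2a (0.875).

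The apoeb difference was negative under DDVP and positive without food, and the gap between both effects was tested. Their controls were unlike. Fed fish had food 4 h before harvest, while by the paper DDVP controls were fed before the exposure and again several hours later. What this adds to the gap was not tested. As above, the DDVP controls spread less than separate sets would, so the adjusted p values are too small. The high DDVP effect minus the 50 h effect, fitted over all 32 arrays of the deposited table, was -2.19 (SE 0.41, adjusted p = 1.4e-05 in limma) for P346290 and -2.16 (SE 0.36, adjusted p = 3.53e-06 in limma) for P565012. For apobb.1 it was -1.10 (SE 0.15, adjusted p = 7.88e-08 in limma). The table's probes passed an adjusted p of 0.001 in this contrast in 77.4% of cases, and with a negative sign in 33.1%. The low DDVP effect minus the 29 h effect was -1.27 and -1.13 for the apoeb probes (adjusted p = 0.00873 and 0.0095 in limma) and -0.09 for apobb.1 (adjusted p = 0.612 in limma), where 26.1% of the table passed 0.001.

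**Figure D5:**
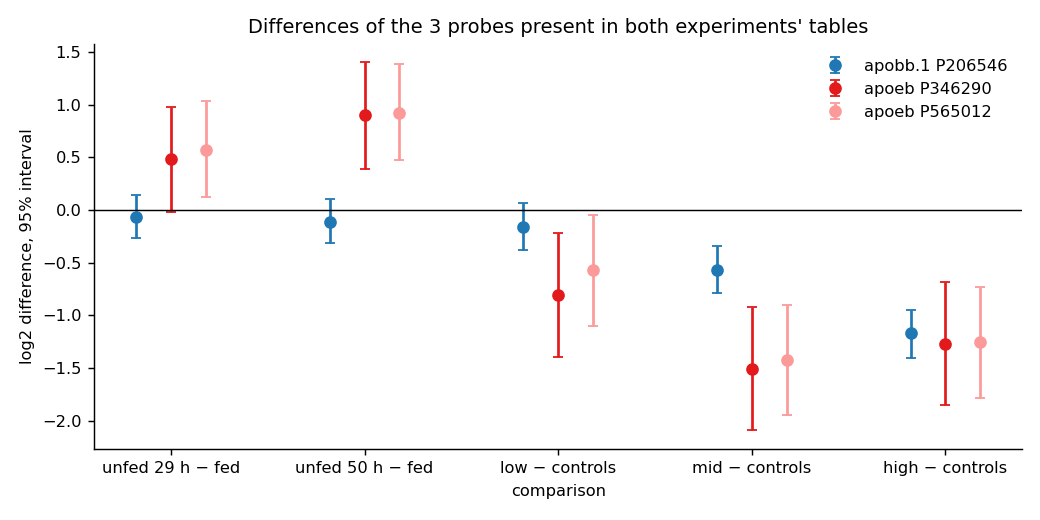
Log2 differences (y axis; points) with 95% intervals (bars) of apobb.1 and 2 apoeb probes after 29 h and 50 h without food against fed liver, from the scanner files, and at each DDVP concentration against 8 controls, from the deposited table (x axis; 4 arrays in every other group). Both apoeb probes lie above 0 after 50 h without food (0.90 and 0.92) and below 0 at the high concentration (-1.27 and -1.25), while apobb.1 is near 0 without food and at -1.17 at the high concentration.

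Some hepatocyte marker transcripts were also lower under DDVP. The deposited table held 6 of the 11 hepatocyte marker probes. Over all its probes 17.3%, 30.7% and 35.1% were called lower in order of concentration. Of the 6 hepatocyte probes 0, 3 and 4 were called lower and none higher, with median differences of -0.42, -0.84 and -1.08. The part of the hepatocyte markers in the fall of apobb.1 and apoeb was not tested.

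Of the other apolipoproteins, the table held 2 probes for apoa4b.1, an apolipoprotein A-IV gene in the apoeb cluster, and 1 for apol1. Both apoa4b.1 probes fell at the high concentration, to differences of -2.19 (SE 0.23, adjusted p = 8.05e-09 in limma) and -3.10 (SE 0.22, adjusted p = 1.65e-11 in limma), after -1.30 and -2.22 at the mid concentration. Without food they differed by -0.03 and -0.38 after 50 h (adjusted p = 0.896 and 0.0906 in limma). The apol1 probe was called higher at the low concentration, at 1.09 (adjusted p = 3.58e-06 in limma). At mid and high it was at 0.79 and 0.66 (adjusted p = 7.22e-05 and 0.00042 in limma) and missed only the fold filter. Among all the deposited probes 30.7%, 62.6% and 74.6% were called in order of concentration, and 17.3%, 30.7% and 35.1% were called lower. The median of the 3 probes was -0.23, -1.30 and -2.19.

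Genes for the assembly and secretion of lipoproteins were represented by 3 probes, in a table where 17.3%, 30.7% and 35.1% of probes were called lower. Of these 3 probes, in order of concentration, 0, 0 and 1 rose and 1, 2 and 2 fell (medians -0.78, -1.72 and -1.49). Those that fell were the 2 probes of tm6sf2a, whose mammalian counterpart loads lipid onto apolipoprotein B particles, at -2.24 (SE 0.16) and -1.49 (SE 0.21) at the high concentration. The probe that rose was that of sar1ab, a small GTPase of the vesicles that leave the endoplasmic reticulum, at 0.88 (SE 0.17, adjusted p = 3.88e-05 in limma). After 29 h without food sar1ab was lower by the looser threshold, at -0.73 (SE 0.19, adjusted p = 0.0461 in limma), the only 1 of 12 probes of this list called in either unfed group. Among all probes tested 5.75% and 6% passed that threshold after 29 h and 50 h.

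For uptake the table held 2 probes. Among all its probes 30.7%, 62.6% and 74.6% were called in order of concentration. That of scarb1, the receptor for high density lipoprotein, was at 0.65, 1.34 and 1.85 (SE 0.15) against the controls. It was called at mid and high, and at low (adjusted p = 0.00076 in limma) it missed only the fold filter. That of lrpap1, a chaperone of the low density lipoprotein receptor family, was at -0.94, -0.48 and -0.96 (SE 0.17) and was called at the low and high concentrations. No probe of the 12 of this list tested without food passed 0.05, ldlra, a low density lipoprotein receptor, being at -0.63 after 50 h (SE 0.40, adjusted p = 0.36 in limma). Among all probes tested 5.75% and 6% passed 0.05 after 29 h and 50 h.

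The genes that remodel lipoproteins in plasma went both ways. In order of concentration, 30.7%, 62.6% and 74.6% of all the deposited probes were called, and 17.3%, 30.7% and 35.1% were called lower. Of the 9 probes of this list 2, 4 and 2 rose and 4, 4 and 5 fell, with medians of 0.29, -0.30 and -1.10. The paraoxonase gene pon2 fell to -3.83 (SE 0.18), while pon1, whose mammalian product rides on high density lipoprotein and splits organophosphates, rose to 2.69 (SE 0.24, adjusted p = 8.11e-10 in limma). The endothelial lipase gene lipg was highest at the low concentration, at 4.74 (SE 0.46, adjusted p = 1.5e-08 in limma), and read 1.2 at the high one (adjusted p = 0.0166 in limma). It was also the only probe of this list called after 50 h without food at 0.05, at 2.38 (SE 0.52, adjusted p = 0.0239 in limma). Among all probes tested 6% passed 0.05 in that comparison.

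At the high concentration abcg1, a cholesterol exporter, was at -1.10, lipca, the hepatic lipase, at -1.29 and pla2g7, a lipoprotein-borne phospholipase, at 1.32, all called. The phospholipid transfer gene pltp was called at the mid concentration alone, at 2.79 (SE 0.41), with 1.27 and 1.11 on either side.

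Nuclear regulators of lipoprotein genes in the table were mostly lower at the mid and high concentrations. The table held 10 of the 22 array probes of this list. Over all its probes 17.3%, 30.7% and 35.1% were called lower in order of concentration. Of the 10 regulator probes 1, 1 and 0 rose and 4, 8 and 8 fell, with medians of -0.73, -1.16 and -1.47. The largest change was that of creb3l3a, whose mouse counterpart drives apolipoprotein genes in the unfed liver, at -2.27, -4.73 and -5.05 (SE 0.19). The hepatocyte nuclear factors hnf4b and hnf4a reached -3.20 (SE 0.24) and -1.44 (SE 0.15), the bile acid receptor gene nr1h4 -1.44 (SE 0.18), rorab -1.63 (SE 0.21) and nr2f2 -0.99 (SE 0.15).

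Among the forkhead factors foxa1 and foxa3 reached -1.88 and -1.50 at the high concentration, and foxa2 was called at the mid concentration, at -1.27. The single probe that rose was that of pparda, a fatty acid sensor, at 1.34 and 1.01 at the low and mid concentrations. Without food 1 of 16 probes of this list passed 0.05 in each unfed group, where 5.75% and 6% of all probes passed. It was that of foxa3 in both, at 0.68 (SE 0.16, adjusted p = 0.0286 in limma) and 0.80 (SE 0.16, adjusted p = 0.0154 in limma). Over the alternatives its 50 h difference was 0.69 to 1.07, with adjusted p of up to 0.186 in limma, so the call was not kept in all. No probe of these 5 lists passed the adjusted p of 0.001 in a feeding comparison.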

How the data were processed

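Liver RNA pools of male zebrafish were hybridised to single-colour Agilent arrays. The table deposited for all 32 arrays lists 5481 probes as log2, made by the authors in Partek Genomic Suite 6.4. The methods name quantile normalization of the median signal, log2 and batch removal. Probes were kept at a false discovery rate of 0.001 over the DDVP and feeding groups with no filter on fold change. DDVP slides were read on a GenePix scanner at 2 laser powers, with off-scale probes taken from the weaker scan; whether those were rescaled is not given in the sources used here. For the 12 nutrient restriction arrays the deposited scanner files hold intensity values per spot from Agilent Feature Extraction 10.7.1.1 (median signal, local background and processed signal). For apobb.1 and 2 apoeb probes the deposited log2 values of these 12 arrays match the processed signal after quantile normalization once a probe-wise constant is added (-2.56 for apobb.1, -0.64 and -0.65 for apoeb), so levels are not comparable between the experiments. Over all probes the deposited values of these arrays also lay closer to the processed signal (median SD of the difference 0.00155) than to the median signal (0.0459), unlike the methods' wording.

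Here the median signal, with no background taken off, was quantile normalized and log2 transformed, outlier spots were dropped and replicate spots averaged. A probe was kept if its signal to noise reached 3 on every array of any 1 group (16082 of 43603). Groups were compared with limma 3.58.1 (lmFit, eBayes) in R 4.3.3, with Benjamini-Hochberg adjustment over all probes tested, at an adjusted p of at most 0.001 (feeding) or with a 1.8-fold change beside it (DDVP, 20 arrays, controls pooled). The methods' analysis of variance was replaced by limma, which shares the spread over probes. Probes were named by RefSeq transcript (15163 of 43603 matched a symbol). Every probe of the listed genes is reported, with called genes of 5 pathway lists, some of which are not reported here by name, and the 3 named probes most like each gene, by 1 probe a gene. The members, the lists and the marker lists (hepatocyte, exocrine pancreas, erythrocyte, intestine, macrophage, vitellogenin) were chosen with earlier results of these data known. The labels do not say whether arrays of a group came from separate tanks, so p values measure the spread between pools. Median signals per array were 46 to 59 units and the share of spots well above background was 48.87 to 56.65%, and with 4 arrays a group their number limits the precision. The scripts were tested on simulated data. Alternatives covered background, normalization, filters, blocks, control sets and left-out arrays.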

Additional observations from a re-analysis of the deposited data

Results flagged for a closer look

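The lowest unfed 50 h array of apobb.1 (array 1, 17.48) stood apart from the other 3 arrays of its group by most of the group's range. It was the only such array in 33 groups of member values examined, and chance marks about 1 in 20 groups. The effect of high DDVP differed from that of 50 h without food in all 3 member probes of the deposited table. The gap was -1.10 for apobb.1 and -2.19 and -2.16 for apoeb, and 77.4% of the table also differed. Both effects were taken against their own, unlike controls.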

How the results depend on the processing

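Of the alternatives, none called a member probe at an adjusted p of 0.001 in a feeding comparison. The 50 h apoeb difference was positive in all 22 tested alternatives of P565012 (0.69 to 1.17, adjusted p at most 0.05 in 12), in all 22 of P346290 (0.70 to 1.14, 6) and in all 21 of P114109 (0.65 to 1.22, 0). It was smallest with the processed signal scaled to the 75th percentile. The number of member probes called after 50 h went from 0 to 2 at an adjusted p of at most 0.05. The call count over all probes rose to 924, 965 and 1 at that threshold.

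Over all probes, the counts called at 0.001 after 29 h and 50 h (1 and 3 as reported) were 2 and 9 with the processed signal at the 75th percentile, 2 after 29 h with it quantile normalized, 1 after 50 h without the filter on dim probes, 0 and 1 with the slide as a block, and 31 and 56 in the deposited table, with 1 between the unfed groups there. Both were 0 without the 5 arrays highest in intestinal markers or the 4 highest in exocrine pancreas markers, alternatives chosen after the data were seen, which test fewer arrays; the second leaves 1 fed array, assumed to vary like the other groups. Leaving out 1 array gave 0 to 3 after 29 h and 1 to 18 after 50 h.

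Uncalled differences changed sign as follows. Without the 5 intestinal arrays apoea was -1.36 after 29 h, and between the unfed groups apoa1a was 0.01 and apoa1b -0.27. Without the 4 pancreas arrays, against fed array 3 alone, apoa1a was 0.31 and 0.15 and apoa1b 0.59 and 0.16 after 29 h and 50 h, and apoa1b was -0.43 between the unfed groups, where it was also 0.00 with the processed signal quantile normalized and -0.02 with the slide as a block. Leaving out 1 array gave -0.19 to 0.07 (apoa1a) and -0.30 to 2.79 (apoea) after 29 h, and -0.21 to 0.05 (apoa1a), -0.43 to 0.58 (apoa1b), -0.08 to 0.01 (apobb.1) and -0.75 to 2.34 (apoea) between the unfed groups. From mid to high DDVP it gave -0.06 to 0.55 (P346290) and -0.02 to 0.42 (P565012). The cause of these changes was not tested.

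Under DDVP the member probes called at the high concentration went from 3 to 1 against control set 2 alone and were 2 to 3 when 1 array was left out. The mid to high count over all probes, 75 as reported, was 33 and 47 against control set 1 or 2 alone and 37 to 102 with 1 array left out. Without the fold filter 2612 probes were called at the low concentration, and apobb.1 was called at mid. Median centring changed no member call.

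Replicate numbers were not treated as pairs. Deviations of arrays with the same number correlated at -0.354 to 0.415 (feeding) and -0.284 to 0.328 (DDVP). Arrays with different numbers were not compared in this way, so pairing is not settled by this range. With the replicate number as a block 0 probes were called after 29 h, the apoeb adjusted p after 50 h was 0.0461 for P565012 and 0.0609 for P346290, and no member call at 0.001 changed. The planned mean signal was replaced by the median signal in the normexp alternative. Signal over background limits apoea and apoa1b, whose lowest signal to noise ratios were 3.58 and 7.62, more than the other members.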
